A study of Mus musculus with 24 samples.

Results

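The 9 genes described here, Gad1, Gad2, Slc32a1, Slc6a5, Pax2, Kit, Sorcs3, Grm2 and Tfap2b, are used in the mouse cerebellum for transmission by GABA and glycine or mark its inhibitory interneurons. They were taken by symbol, and each symbol matched 1 of the 54232 genes counted in each library. All 9 passed the filter on low counts, which left 22502 genes to test. RNA was sequenced from the whole cerebellum of 24 mice aged 6 weeks, with 1 library per mouse.

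The mice came from 5 genotypes at the Atxn1 locus, which encodes ataxin-1, the protein whose expanded polyglutamine (polyQ) tract causes spinocerebellar ataxia type 1 (SCA1). WT mice (n = 8) carried the unexpanded allele on both chromosomes (2Q/2Q), and SCA1 mice (n = 4) carried a knockin allele with an expanded repeat beside an unexpanded one (Atxn1_154Q/2Q). S776A replaces a serine that is a phosphorylation site of ataxin-1 with alanine. It lay on the expanded allele only in SCA1 S776A mice (Atxn1_154Q[S776A]/2Q, n = 4), on both alleles in S776A double mice (Atxn1_154Q[S776A]/2Q[S776A], n = 4), and on both unexpanded alleles in WT S776A homozygous mice (Atxn1_2Q[S776A]/2Q[S776A], n = 4). The 3 genotypes SCA1, SCA1 S776A and S776A double share the expanded repeat. All alleles are at the endogenous locus and none is limited to a cell type. S776A was made by CRISPR editing of mouse eggs together with silent changes in the codons around it, on a C57BL/6J background. The labels give neither the founder line nor the sex of each mouse. Library preparation took the whole tissue, so fewer cells of a type and less RNA per cell cannot be told apart for any value below.

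Inhibition in the cerebellar cortex comes from molecular layer interneurons (basket and stellate cells), from Golgi cells in the granular layer, and from Purkinje cells, the sole output neurons of the cortex. All of these make GABA, and most Golgi cells also release glycine. Not all of the 9 genes are limited to interneurons, since Gad1, Gad2 and Slc32a1 are also used by Purkinje cells and by neurons of the cerebellar nuclei. Ataxin-1 works in a complex with the repressor Capicua, which binds DNA at the letters TGAATGAA or TGAATGGA.

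Those letters were searched on both strands of the 250 bases before each gene's start in the RefSeq annotation of GRCm38.p6, together with GCCNNNGGC, the palindrome bound by AP-2 factors, the family to which the protein of Tfap2b belongs. No motif overlaps another in these promoters. A Capicua octamer lay in the promoter of 1 of the 9 genes, Tfap2b, against 2.07% of the 32851 RefSeq promoters of that length. The AP-2 palindrome lay in a promoter of Gad2, Kit, Grm2 and Pax2 (in 1 of the 3 Pax2 promoters), against 13.7% of all promoters. These shares count promoters and not genes, and Pax2, Kit and Slc6a5 have more than 1 promoter each. The Gad2 promoter holds 2 palindromes, of which 1 lies in its exon-free stretch. Of the sequences with a match, that with the Capicua octamer and 2 with the palindrome outside annotated exons are shown, without those of Pax2 and Kit. They are from Tfap2b at chr1:19211804-19212053 (plus strand), Grm2 at chr9:106656110-106656359 (minus strand) and the exon-free stretch of the Gad2 promoter at chr2:22622077-22622204 (plus strand), 5′ to 3′, with the match in capitals.
Tfap2b: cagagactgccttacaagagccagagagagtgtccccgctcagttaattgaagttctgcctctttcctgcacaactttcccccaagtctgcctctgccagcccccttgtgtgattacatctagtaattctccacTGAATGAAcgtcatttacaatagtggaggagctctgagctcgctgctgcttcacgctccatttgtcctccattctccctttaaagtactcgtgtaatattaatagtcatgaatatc
Grm2: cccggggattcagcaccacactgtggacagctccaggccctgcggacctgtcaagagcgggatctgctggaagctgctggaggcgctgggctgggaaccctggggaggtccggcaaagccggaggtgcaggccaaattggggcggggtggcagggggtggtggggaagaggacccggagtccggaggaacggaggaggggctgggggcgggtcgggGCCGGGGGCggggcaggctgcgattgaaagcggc
Gad2: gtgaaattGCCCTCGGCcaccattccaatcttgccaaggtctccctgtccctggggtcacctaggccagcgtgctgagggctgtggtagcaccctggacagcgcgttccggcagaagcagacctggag
The Tfap2b octamer starts 116 bases before the RefSeq start site and the Grm2 palindrome 34 bases before its own. In the GENCODE annotation Tfap2b begins upstream, at chr1:19208914, so its window lies inside the gene, outside annotated exons. A match of letters is a description of the sequence and shows no binding.

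The libraries held 62163600 to 88430180 fragments on genes, and between 289 (Pax2) and 56311 (Gad1) of them fell on each of the 9 genes in a library. Levels are given in CPM, the counts on a gene after every library was scaled to a common total with TMM factors. The study sequenced its samples in 2 batches, and a split on how large a share of each library was unmapped, multimapping, outside genes or ambiguous placed 16 mice in batch 1 and 8 in batch 2. Batch 1 held WT mice 1 to 4 and the 3 genotypes with the expanded allele. Batch 2 held WT mice 5 to 8 and the WT S776A homozygous mice, so that each genotype was set against 4 WT mice. Atxn1 itself was at 49.1 to 54.1 CPM in WT mice of batch 1 and at 50.3 to 69.5 CPM in the 12 mice with the expanded allele, and its counts do not separate the alleles. In WT S776A homozygous mice it was at 55.9 to 59.0 CPM against 47.9 to 62.0 CPM in WT mice of batch 2.

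In WT mice the level per length of transcript ordered the 9 genes from Gad1 to Pax2. Gad1, the larger of the glutamate decarboxylases that make GABA, stood at 80.2 ± 4.78 CPM per kb (SD, n = 8), followed by Slc32a1 at 50.5 ± 3.23, Kit at 30.3 ± 2.58, Gad2 at 27.2 ± 2.01 and Tfap2b at 10.3 ± 0.44 CPM per kb. Grm2 (4.92 ± 0.29), Slc6a5 (4.72 ± 1.03), Sorcs3 (3.95 ± 0.45) and Pax2 (1.93 ± 0.19 CPM per kb) were lower. The ranges over the WT mice of Kit and Gad2, of Grm2 and Slc6a5, and of Slc6a5 and Sorcs3 overlapped, and those of the other neighbors in this order did not.

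None of the 9 genes was called in any genotype against WT, where a call needed a change of more than 0.5 on the log2 scale in either direction with p below 0.01 after Benjamini-Hochberg adjustment in edgeR's quasi-likelihood test. In SCA1 mice all 9 log2 fold changes were below 0, as were those of 49.5% of all genes tested, with a median of -0.18 against 0.00 over all genes tested, of which 0.173% were called. At an unadjusted p under 0.05, 3 of the 9 genes (Gad1, Sorcs3 and Kit) were lower, against 4.32% of all genes tested, and 8.25% passed in either direction. The smallest adjusted p of the 9 was 0.441. In SCA1 S776A mice all 9 were again below 0 (48.8% of all genes), with a median of -0.09, and 0 passed at an unadjusted p under 0.05, against 3.93% of all genes, of which 0.0133% were called. In S776A double mice the median of the 9 was -0.12, all 9 were below 0 (50.2% of all genes), and 0 passed at an unadjusted p under 0.05, against 6.93% of all genes and 0.0267% called. In WT S776A homozygous mice the median was -0.20, all 9 were below 0 (46.7% of all genes), and 0 passed at an unadjusted p under 0.05, against 9.98% of all genes, with 0 genes called in the whole table. DESeq2 with the batch as a covariate also called 0 of the 9 in each of these comparisons, and 3 of them in SCA1 mice and 0 in the other 3 genotypes had an unadjusted p under 0.05. The 3 genotypes with the expanded allele share the same 4 WT mice, so their common direction is not 3 separate observations. Without WT mouse 1, all 9 log2 fold changes in SCA1 mice were still below 0 with a median of -0.15. Of these 9, 0 then had an unadjusted p under 0.05. In SCA1 S776A mice Sorcs3 was at 0.01 without that mouse.

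**Figure D1:**
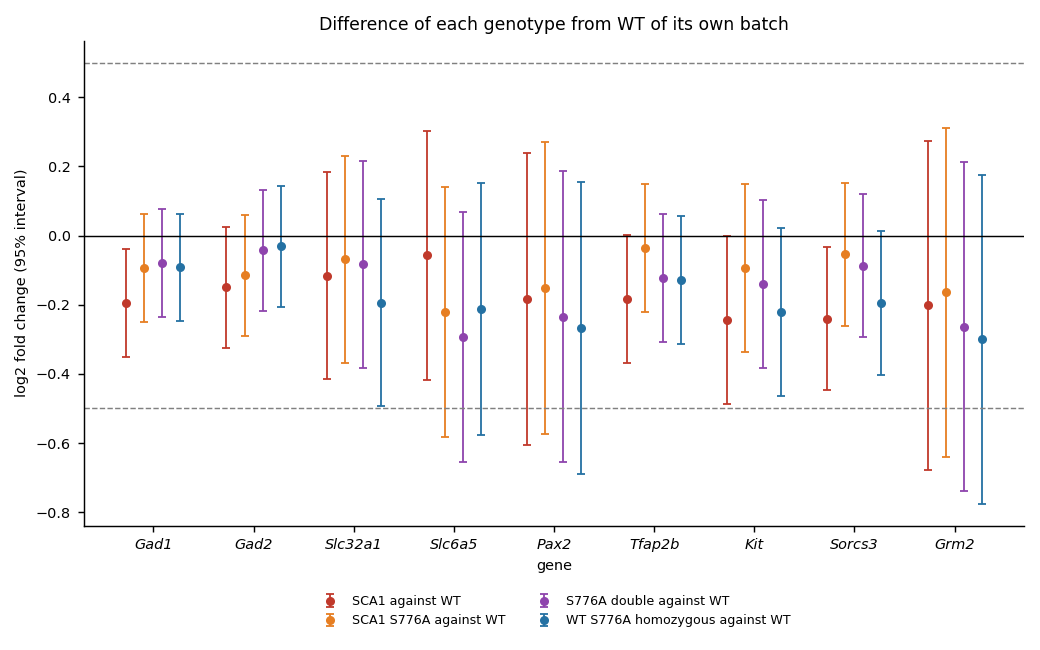
Log2 fold change of each of the 9 genes in 4 genotypes against WT mice of the same batch (points) with the 95% interval of the edgeR fit (bars), and the fold threshold of 0.5 in either direction as dashed lines. All 36 points lie between -0.30 and 0, and the intervals of Grm2, Pax2 and Slc6a5 are wider than those of Gad1 and Gad2.

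Gad1 and Gad2 encode the glutamate decarboxylases GAD67 and GAD65, the enzymes that make GABA. Gad1 (ENSMUSG00000070880, chr2:70553072-70602014) was at 651, 584, 576 and 572 CPM in WT mice 1 to 4 and at 512, 544, 530 and 496 CPM in SCA1 mice. Every SCA1 mouse was below every WT mouse of the batch, WT mouse 1 stood above the other WT mice, and the log2 fold change was -0.20 (SE 0.08, 95% interval -0.35 to -0.04, adjusted p = 0.441 by edgeR). In the other genotypes with the expanded allele Gad1 overlapped WT, at 585, 513, 548 and 588 CPM in SCA1 S776A mice and 655, 517, 545 and 543 CPM in S776A double mice. Gad2 (ENSMUSG00000026787, chr2:22622205-22693874) was at 159, 148, 147 and 147 CPM in WT mice 1 to 4 and at 140, 148, 134 and 120 CPM in SCA1 mice. SCA1 mouse 2 lay within the WT range, and the log2 fold change was -0.15 (SE 0.09, adjusted p = 0.686). S776A double mouse 1 had the highest Gad2 (178 CPM) and Gad1 of its group, above all WT mice of the batch for both genes. In WT S776A homozygous mice Gad1 differed from WT by -0.09 (SE 0.08) and Gad2 by -0.03 (SE 0.09) on the log2 scale, and the mice of both groups overlapped.

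Slc32a1 (ENSMUSG00000037771, chr2:158610767-158615748) encodes the vesicular transporter VGAT, which loads GABA and glycine into synaptic vesicles. It was at 155, 134, 131 and 144 CPM in WT mice 1 to 4 and at 132, 134, 124 and 131 CPM in SCA1 mice, which overlapped, with a log2 fold change of -0.12 (SE 0.14, adjusted p = 0.879). SCA1 S776A mice ranged from 119 to 152 CPM and S776A double mice from 122 to 140 CPM. The antisense gene Gm14205 covers 697 bases, or 24.9%, of its exonic length. The sum of the strand-wise counts was 1.25 to 1.49 times the unstranded count of Slc32a1 used here. The unstranded counts drop fragments that fall on both genes, and the sum includes them. The ratio of fragments between the strands was 0.9995 to 1.0035 over the libraries, so strand cannot assign these fragments to Slc32a1 or Gm14205. Of the other 8 genes only Grm2 overlaps an antisense gene (Gm28111, 470 bases), and its sum was 1.00 to 1.03 times its unstranded count.

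Slc6a5 (ENSMUSG00000039728, chr7:49910146-49963856) encodes GlyT2, the transporter that takes glycine up into glycinergic neurons such as Golgi cells. It was at 37.2, 37.6, 48.3 and 35.7 CPM in WT mice 1 to 4 and at 41.5, 48.7, 38.1 and 24.2 CPM in SCA1 mice. SCA1 mouse 2 was above all WT mice and SCA1 mouse 4 below all of them, and the log2 fold change was -0.06 (SE 0.17, 95% interval -0.42 to 0.30). SCA1 S776A mice, at 35.1, 32.0, 33.6 and 35.5 CPM, were all below WT, with a log2 fold change of -0.22 (SE 0.17, adjusted p = 1.00 by edgeR). This was the only one of the 9 genes whose SCA1 S776A and WT mice did not overlap, against 4.39% of all genes tested. Slc6a5 was also the gene of the 9 that differed most between the batches. WT mice 5 to 8 had 25.3, 28.1, 27.4 and 32.4 CPM, and each was below every WT mouse of batch 1, a log2 difference of -0.49 (SE 0.17, adjusted p = 0.0271 by edgeR). Between the WT mice of the 2 batches, 17.6% of all genes tested were called, and 0 of the 9 genes. A fit without the batch turned the Slc6a5 difference in SCA1 mice to 0.17.

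Pax2 and Tfap2b encode transcription factors of the GABAergic lineage of the cerebellum. Pax2 (ENSMUSG00000004231, chr19:44756045-44837871) marks the precursors of cerebellar interneurons. It was at 11.7, 11.1, 10.1 and 10.6 CPM in WT mice 1 to 4, at 10.4, 10.5, 8.92 and 8.40 CPM in SCA1 mice and at 9.32, 8.36, 10.0 and 9.24 CPM in S776A double mice. All S776A double mice were below all WT mice of the batch, whereas SCA1 mice overlapped them. The log2 fold change was -0.23 in S776A double mice (SE 0.20, adjusted p = 0.816) and -0.18 in SCA1 mice (SE 0.20, adjusted p = 0.864), both by edgeR. Tfap2b (ENSMUSG00000025927, chr1:19208914-19238576), the gene with the Capicua octamer before its RefSeq start, encodes AP-2 beta. It was at 66.2, 65.9, 59.5 and 67.7 CPM in WT mice 1 to 4 and at 57.4, 60.3, 58.9 and 51.7 CPM in SCA1 mice, which gave a log2 fold change of -0.18 (SE 0.09, adjusted p = 0.609). Of the 4 SCA1 mice, 1 lay within the WT range. SCA1 S776A mice split around WT at 67.9, 55.2, 58.0 and 71.8 CPM, with 2 above and 2 below all WT mice of the batch. In WT S776A homozygous mice Tfap2b was at 63.4, 63.3, 59.6 and 54.1 CPM against 64.2, 64.8, 65.0 and 68.8 CPM in WT mice of batch 2. It was the only one of the 9 genes whose groups did not overlap in that comparison, against 2.65% of all genes tested, with a log2 fold change of -0.13 (SE 0.09, adjusted p = 0.578 by edgeR).

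Kit (ENSMUSG00000005672, chr5:75574916-75656722) encodes the receptor tyrosine kinase for stem cell factor and is carried in the cerebellum by molecular layer interneurons, while Purkinje cells make its ligand, encoded by Kitl. Kit was at 320, 272, 257 and 252 CPM in WT mice 1 to 4 and at 235, 246, 227 and 221 CPM in SCA1 mice. The groups did not overlap, and the log2 fold change was -0.24 (SE 0.12, 95% interval -0.49 to 0.00, adjusted p = 0.605 by edgeR). WT mouse 1 was the highest of the batch here too, and without it the log2 fold change of Kit was -0.16 and that of Gad1 -0.15. SCA1 S776A mice (233 to 282 CPM) and S776A double mice (220 to 301 CPM) overlapped WT. Kitl differed from WT by -0.19 in SCA1 mice on the log2 scale (SE 0.10, adjusted p = 0.652).

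Sorcs3 (ENSMUSG00000063434, chr19:48206025-48805505) encodes a sorting receptor of the sortilin family and is a marker of molecular layer interneurons. It was at 34.5, 28.8, 27.8 and 30.4 CPM in WT mice 1 to 4 and at 25.5, 27.2, 26.0 and 24.1 CPM in SCA1 mice. The groups did not overlap, and the log2 fold change was -0.24 (SE 0.10, 95% interval -0.45 to -0.03, adjusted p = 0.503 by edgeR). SCA1 S776A mice stood at 30.1, 26.6, 29.7 and 30.7 CPM, 3 of them above all SCA1 mice, and S776A double mice ranged from 25.1 to 31.8 CPM. WT mice of batch 2, at 24.0 to 27.7 CPM, were all below those of batch 1, with a log2 difference of -0.23 (SE 0.10). The SCA1 mice of batch 1 lay in that range too, but between batches genotype and batch cannot be told apart.

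Grm2 (ENSMUSG00000023192, chr9:106643095-106656082) encodes the metabotropic glutamate receptor mGluR2, which in the cerebellar cortex is characteristic of Golgi cells. It was at 23.0, 24.1, 22.3 and 23.7 CPM in WT mice 1 to 4. SCA1 mice, at 21.3, 21.0, 19.4 and 19.2 CPM, and S776A double mice, at 19.8, 19.7, 20.4 and 17.6 CPM, were all below WT. Of the SCA1 S776A mice, at 22.3, 20.3, 18.7 and 21.8 CPM, all but mouse 1 were below WT. The log2 fold changes were -0.20 in SCA1, -0.16 in SCA1 S776A and -0.26 in S776A double mice, each with an SE of 0.23 in the fit of all 24 mice, and the smallest adjusted p of these was 0.816 by edgeR. That SE is the largest of the 9 genes. The coefficient of variation of Grm2 was 50.6% among WT S776A homozygous mice and 3.45% to 7.81% in the other groups of 4. Over all 3 genotypes with the expanded allele, 11 of 12 mice had less Grm2 than every WT mouse of the batch, and the difference in mean log2 CPM had p = 0.0011 in an exact two-sided permutation test (n = 12 and 4). The edgeR fit of all 24 mice gave -0.21 (SE 0.18, adjusted p = 0.805), and a fit of the 16 mice of batch 1 gave -0.21 with an adjusted p of 0.0455. In the fit of 24 mice 0.0978% of all genes were called in this comparison, and 0 of the 9 genes under either fit. The exact test is of 1 gene among 9, and its p is not adjusted for the others, of which Pax2 had p = 0.0126 and the other 7 between 0.0615 and 0.203.

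Groups that did not overlap were seen for 4 of the 9 genes in SCA1 mice (Gad1, Kit, Sorcs3 and Grm2), against 8.76% of all genes tested, and for 2 in S776A double mice (Pax2 and Grm2), against 7.11%. With 4 mice against 4, such a gene has p = 0.029 in the exact two-sided permutation test, the smallest that this design allows. The libraries also differed in how levels depended on GC content. The rank correlation, across genes, between the GC content of the transcript and the log2 difference from WT was between -0.30 and -0.05 in the 12 mice with the expanded allele, and 0.20, 0.00, -0.14 and -0.10 in WT mice 1 to 4, which overlapped. Grm2 (56.9% GC), Pax2 (62.2%) and Slc32a1 (61.9%) are the most GC-rich of the 9 genes. The part of GC content in their differences was not tested in the mice with the expanded allele.

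**Figure D2:**
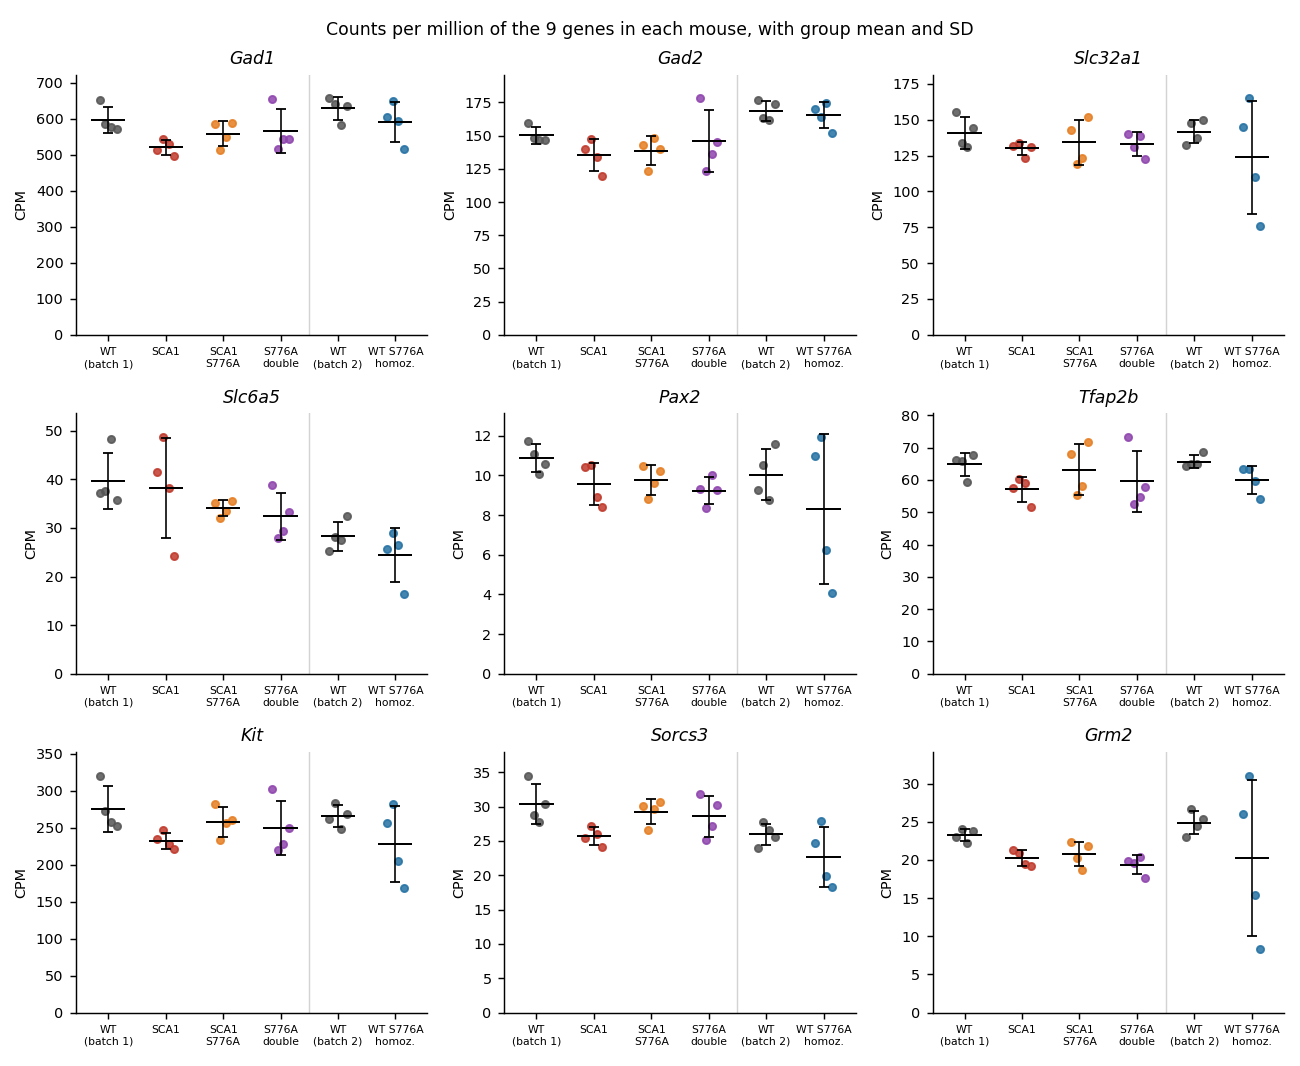
CPM of each of the 9 genes in each mouse (points, 1 panel per gene, axes from 0), with the group mean and SD in black, and batch 1 to the left of the grey line and batch 2 to the right. SCA1 mice lie below all batch 1 WT mice for Gad1, Kit, Sorcs3 and Grm2, and 2 WT S776A homozygous mice lie far below the others for Grm2, Pax2 and Slc32a1.

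Comparisons among the 3 genotypes that share the expanded repeat ask whether levels of the 9 genes changed when S776A was added to the expanded allele or to both alleles. These 3 comparisons gave 27 differences, and none was called, against 0.00444% of all genes in SCA1 S776A against SCA1 mice and 0% in the other comparisons. In SCA1 S776A against SCA1 mice 8 of the 9 genes had values above 0 and Slc6a5 below 0 (49.9% of all genes below 0), with a median log2 difference of 0.05. The largest difference was in Sorcs3, at 0.19 (SE 0.10, 95% interval -0.02 to 0.39, adjusted p = 1.00 by edgeR). Kit differed by 0.15 (interval -0.09 to 0.39), Tfap2b by 0.15 (-0.04 to 0.33) and Gad1 by 0.10 (-0.06 to 0.26). In S776A double against SCA1 mice 6 of the 9 were above 0 with a median of 0.06, and Slc6a5, Grm2 and Pax2 below 0 (49.6% of all genes). In S776A double against SCA1 S776A mice 7 of the 9 were below 0 (51.4% of all genes) with a median of -0.05, and Gad1 and Gad2 were above 0. All 27 intervals included 0. In SCA1 S776A against SCA1 mice the outermost bounds were -0.53 for Slc6a5 and 0.52 for Grm2. The intervals of Gad1 (-0.06 to 0.26) and Gad2 (-0.14 to 0.21) were narrower. For each gene, only differences inside its own interval are within the error.

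WT S776A homozygous mice varied more among themselves than any other group in the GC-rich members. Grm2 was at 26.0, 31.0, 15.4 and 8.38 CPM in mice 1 to 4, against 23.1, 26.7, 24.5 and 25.4 CPM in WT mice of batch 2. Pax2 was at 11.0, 11.9, 6.25 and 4.07 CPM and Slc32a1 at 145, 165, 110 and 75.6 CPM in the same mice. For all 3 genes mice 3 and 4 were below every WT mouse of their batch, and mouse 2 was above every one. The log2 difference of mouse 4 from the WT mean was -1.57 for Grm2, -1.29 for Pax2 and -0.90 for Slc32a1, and -0.15, -0.28 and -0.29 for Gad2, Tfap2b and Gad1, which have 44.1% to 47.3% GC. Slc6a5, Kit and Sorcs3, at 48.2% to 50.1% GC, lay between them at -0.78, -0.65 and -0.50. In mouse 3 Grm2 (-0.69) and Pax2 (-0.67) were also the lowest, followed by Sorcs3 (-0.39), Kit (-0.38) and Slc32a1 (-0.36).

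In those 2 libraries the pattern with GC content held across the whole table. The rank correlation across genes of GC content with the log2 difference was -0.43 in mouse 4 and -0.34 in mouse 3, and between -0.17 and 0.25 in the other 6 mice of batch 2. Fragments on mitochondrial genes made up 5.29% of mouse 4's library and 3.87% of mouse 3's, against 2.72% to 3.53% in the other 6. Without mice 3 and 4, a choice made after seeing the data, 4 of the 9 genes were below 0 in WT S776A homozygous mice and the median was 0.01. Slc32a1 (0.12), Pax2 (0.19), Grm2 (0.19), Kit (0.01) and Sorcs3 (0.01) then lay above 0. The shared direction of the 9 genes in this genotype depends on these 2 libraries.

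**Figure D3:**
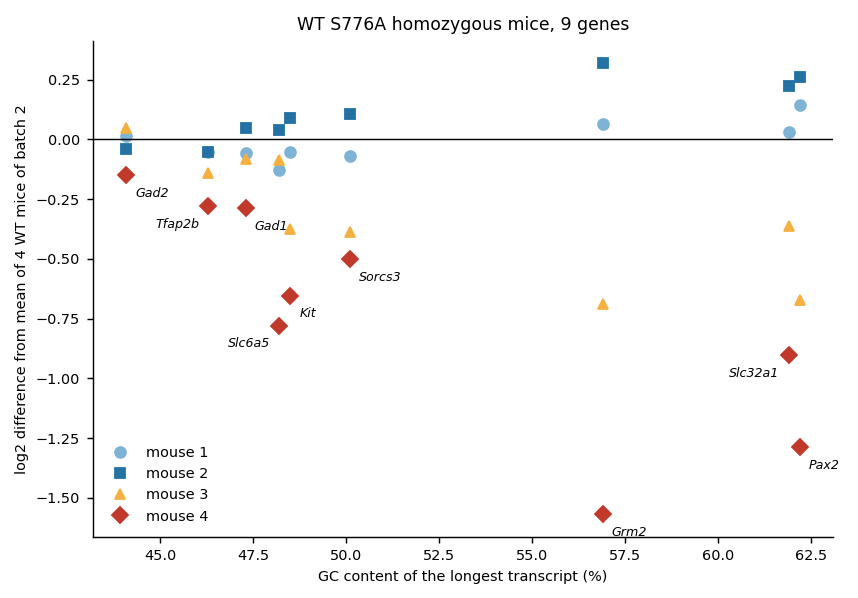
GC content of each gene's longest transcript in percent (horizontal axis) against the log2 difference of each WT S776A homozygous mouse from the mean of the 4 WT mice of batch 2 (vertical axis), with 1 marker type per mouse. Mouse 4 runs from -0.15 for Gad2 at 44.1% GC to -1.57 for Grm2 at 56.9% GC, whereas mice 1 and 2 stay near or above 0.

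Markers of Purkinje cells were also below WT in SCA1 mice. Of 12 Purkinje markers, all 12 were below 0 in SCA1 mice with a median log2 fold change of -0.30, and 10 were lower at an unadjusted p under 0.05, with 0 called by edgeR. Their summed level was 8553 to 9378 CPM in SCA1 mice, 9490 to 11090 in SCA1 S776A, 9407 to 11970 in S776A double and 11160 to 12870 CPM in WT mice of batch 1. The summed level of the 9 genes in all 4 SCA1 mice also lay below that of every WT mouse of the batch. It was 1095 to 1239 CPM in SCA1 mice and 1279 to 1458 CPM in WT mice of batch 1. SCA1 S776A mice had 1132 to 1318 CPM and S776A double mice 1125 to 1447 CPM. The largest parts of the sum in SCA1 mice were Gad1 (496 to 544 CPM) and Kit (221 to 246 CPM), neither of which overlapped WT. None of the 12 Purkinje markers was at 0 in any group. Within genotype and batch, the correlation over 24 mice of a gene's log2 CPM with the mean of the Purkinje markers was 0.88 for Gad1, 0.77 for Kit, 0.70 for Sorcs3 and Slc32a1, and lowest for Slc6a5 at 0.39. Without WT S776A homozygous mice 3 and 4 these values were 0.83, 0.66, 0.58, 0.57 (Slc32a1) and 0.15, and Grm2 was then the lowest, from 0.55 to 0.12. With the mean of 8 other molecular layer interneuron genes, r over 24 mice ran from 0.31 for Grm2 to 0.78 for Gad1. Over the 22 mice it was 0.79 for Kit, 0.73 for Sorcs3 and 0.71 for Gad2, against 0.66, 0.58 and 0.56 with the Purkinje markers. Over these 22 mice Pax2, Slc6a5 and Grm2 were also higher with the interneuron genes than with the Purkinje markers. Gad1 (0.827 against 0.833), Slc32a1 (0.536 against 0.565) and Tfap2b (0.606 against 0.626) were lower. Over 24 mice Kit (0.72 against 0.77), Pax2 (0.48 against 0.60) and Grm2 (0.31 against 0.55) were lower too. Gad2, Sorcs3 and Slc6a5 stayed higher. With the mean of 9 other genes of Golgi and Purkinje layer interneurons, r over the 22 mice ran from 0.40 for Pax2 to 0.76 for Tfap2b. It was the highest of these lists for Tfap2b, Slc6a5 (0.64) and Grm2 (0.43), and not for the other genes. Over 24 mice it ran from -0.17 for Grm2 to 0.60 for Tfap2b and was the highest for no gene. These are descriptions over libraries that share their depth and composition. The part of any cell type's RNA in the differences of the 9 genes was not tested.

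**Figure D4:**
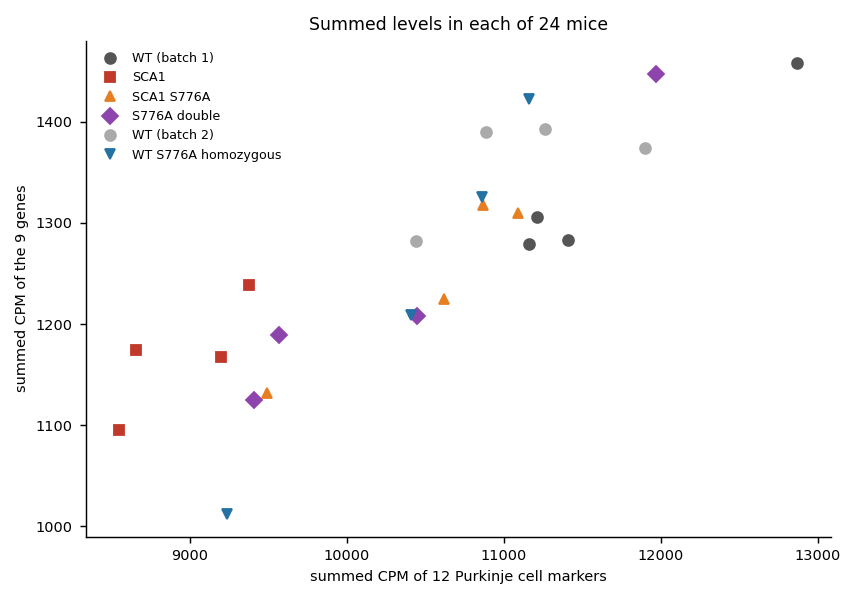
Summed CPM of the 12 Purkinje markers (horizontal axis) against summed CPM of the 9 genes (vertical axis) in each of the 24 mice, with 1 marker type per group. The 4 SCA1 mice lie at the lower left with 8553 to 9378 CPM of Purkinje markers, and WT mouse 1 lies at the upper right with 12870.

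Markers of the cell types that carry the 9 genes were compared from lists of other genes. Of 8 other molecular layer interneuron genes, 6 were below 0 in SCA1 mice with a median of -0.15. At an unadjusted p under 0.05, 2 were lower and 1 (Gjd2) higher. The lowest p was that of Adarb2, at -0.24 (SE 0.08, adjusted p = 0.329). Of 9 other genes of Golgi and Purkinje layer interneurons, 4 were below 0 with a median of 0.16. At an unadjusted p under 0.05, 3 were higher (Sst, Nrgn and Gjd2) and 1 lower (Cck). Gjd2 is on both of these lists. Sst, which encodes somatostatin, had the lowest p at 0.67 (SE 0.18, adjusted p = 0.136), from 1.39 CPM in WT mice. Of 8 granule cell genes 7 were below 0 with a median of -0.13. Among the other types, Cbln1 (granule cells, -0.20), Gdf10 (Bergmann glia, -0.22), Mbp (oligodendrocytes, 0.23) and Aif1 (microglia, -0.15) had the lowest p of their lists in SCA1 mice, with adjusted p values of 0.582, 0.746, 0.233 and 0.905 by edgeR. Kit is also a gene of mast cells and melanocytes. The 4 mast cell markers summed to at most 0.33 CPM and none passed the filter, and the 4 melanocyte markers summed to 1.45 to 3.15 CPM, with Pmel at -0.27 (adjusted p = 0.763). Markers of tissue beside the cerebellum had fitted values above WT in SCA1 mice. All 4 choroid plexus markers were above 0, with a median of 1.24 and 0 at an unadjusted p under 0.05, and summed to 867 to 5026 CPM in SCA1 mice and 11.4 to 1685 CPM in WT mice of batch 1. All 7 brainstem markers that were tested, of 11, were above 0, with a median of 1.26 and 3 at an unadjusted p under 0.05. They summed to 6.51 to 8.79 CPM in SCA1 mice and 4.34 to 6.45 CPM in WT mice of batch 1, which did not overlap, with 1 of the 11 at 0 in those WT mice. The part of tissue from outside the cerebellum in the lower values of the 9 genes was not tested.

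Genes that act with the 9 were read from further lists, and none of their members was called in any genotype against WT. Of 16 genes that move or break down GABA and glycine, 12 were below 0 in SCA1 mice with a median of -0.06, and Slc38a1, which encodes a glutamine transporter, had the lowest p (-0.21, SE 0.08, adjusted p = 0.434). Of 22 genes of the inhibitory synapse, 9 were below 0 with a median of 0.02. Glra2, a glycine receptor subunit, had the lowest adjusted p of that list, 0.0314, at a log2 fold change of 0.71 (SE 0.15), above the level of 0.01 that a call needed. It was also higher in WT mice of batch 2 than of batch 1, by 0.68. The GABA-B receptor subunits Gabbr1 (-0.24, SE 0.08) and Gabbr2 (-0.38, SE 0.14) both had an unadjusted p under 0.05. All 5 sortilin family genes were below 0, from -0.25 for Sorcs2 to -0.13 for Sort1. Of the 5 metabotropic glutamate receptor genes of groups II and III that were tested, 4 were below 0, and Grm4 had the lowest p at -0.72 (SE 0.23, adjusted p = 0.276). Of 11 tested factors of the interneuron lineage, 6 were below 0, and Lhx5, which is also expressed in Purkinje cells, had the lowest p at -0.52 (SE 0.12, adjusted p = 0.0687 by edgeR). Of the 14 genes of the Kit pathway, 8 were below 0 with a median of -0.04, and Kit itself had the lowest p.

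The 9 genes varied together from mouse to mouse. Over the 24 mice, with the batch effect removed, all 36 pairs had a Pearson r above 0, with a median of 0.64, a lowest r of 0.20 between Gad2 and Grm2 and a highest of 0.96 between Pax2 and Grm2. Within genotype and batch the median was 0.65. Without WT S776A homozygous mice 3 and 4 it was 0.55 over 22 mice, all 36 pairs stayed above 0, Kit and Gad1 were the highest pair at 0.91, and Pax2 and Grm2 went from 0.94 to 0.58. Gad1, Gad2, Tfap2b, Kit and Sorcs3 had r of 0.65 or more with each other in those 22 mice, whereas Grm2 had r of 0.73 with Slc32a1, 0.58 with Pax2 and at most 0.38 with the other genes. The libraries share depth, RNA quality and tissue composition, which all enter such a correlation.

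**Figure D5:**
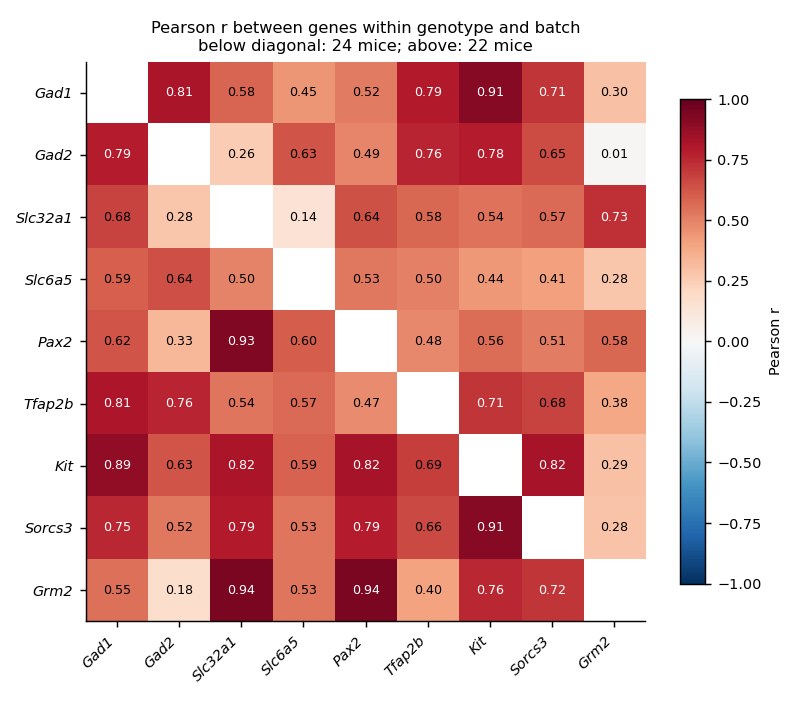
Pearson r between the log2 CPM of each pair of the 9 genes after removal of genotype and batch means, below the diagonal over 24 mice and above it without WT S776A homozygous mice 3 and 4. All 36 pairs are above 0 on both sides, and Pax2 with Grm2 goes from 0.94 to 0.58.

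Among all 22502 genes, those with the level most like each of the 9 over 24 mice (Pearson r of log2 CPM, batch removed) were mostly not interneuron genes. For Gad1 they included Arhgap31 (0.92) and Ptprm (0.91). The genes most like Kit included Mgat5 (0.96) and Pcdhgc3 (0.95), and Sorcs3 was most like Atp2b2 (0.93), Kit (0.93) and Pcdhgc3 (0.92). Grm2 was most like Fam57b (0.98), Nlgn2 (0.98), which encodes the neuroligin of inhibitory synapses, and Caskin1 (0.98). Slc32a1 was most like Tmem184b (0.97), Lpcat4 (0.97) and Dlgap4 (0.96), and Pax2 like Nol6 (0.97), Jup (0.97) and Lrfn3 (0.97). Gad2 was most like Myo5a (0.91), Lpgat1 (0.90) and Slc24a2 (0.89), Tfap2b like Arhgap31 (0.92), Gria1 (0.89) and Gm9954 (0.85), and Slc6a5 like Phlpp1 (0.89), Champ1 (0.89) and Zswim1 (0.88). These values include the WT S776A homozygous mice 3 and 4.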

How the data were processed

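Total RNA from whole cerebella of 24 mice aged 6 weeks was sequenced by the authors as paired reads, 1 library per mouse. Per the labels and the paper's methods, the authors used Trimmomatic 0.36 for trimming and STAR 2.7.2d for alignment to GRCm38.p6. They deposited whole-number counts of fragments for each gene, before their batch correction and without normalization. The unstranded counts were used, which leave out fragments on genes that overlap on opposite strands. Of 54232 gene identifiers, 54165 matched GENCODE M21 and 67 did not, and 1 row without a mouse gene identifier was left out.

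Genotypes were taken from the labels. The batch of each library, which the sources used here do not list, was inferred by k-means (k = 2, 50 starts, mean silhouette 0.634) on 4 shares of fragments. Counts were tested in R 4.3.3 with edgeR 4.0.16 (filterByExpr, TMM, robust quasi-likelihood fit) with genotype and batch as terms in all 24 mice, and Benjamini-Hochberg adjustment over 22502 genes. The 95% intervals come from that fit. CPM use TMM library sizes, and log2 CPM a prior count of 2. For correlations, limma 3.58.1 took the batch out of the log2 CPM. Exact permutation tests (two-sided) were run on single genes within a batch.

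The 9 genes, the further lists and the tests were chosen with earlier results of these data known. All 9 genes are named, and of each further list the genes called or, with none, the gene of lowest unadjusted p in SCA1 mice. Other genes of the lists were named after their values were seen. Some genes that this rule names are not reported here. Promoters were read from RefSeq (GRCm38.p6), and GC content from the longest GENCODE transcript, for 99.9% of tested genes. The fits were tested on simulated data. Alternatives were other filters, RLE size factors, no batch term, 1 batch only, ComBat-seq (sva 3.50.0) with DESeq2 1.42.0, DESeq2 with batch, strand-wise counts, Xist as a covariate, another threshold and leaving out each mouse.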

Additional observations from a re-analysis of the deposited data

Results flagged for a closer look

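In 4 of the 54 groups of 4 mice examined (9 genes in 6 groups), 1 mouse stood apart from the other 3 by Dixon's test on log2 CPM, where chance gives about 1 in 20. WT mouse 1 was far above the other WT mice of batch 1 for Gad1, at 650.9 CPM against 572.4 to 584.4 in the others, and for Gad2, at 159.3 CPM against 146.5 to 147.9. It also had the highest Purkinje marker sum of the 24 mice, 12870 CPM. WT mouse 3 was above the others for Slc6a5, at 48.3 CPM against 35.7 to 37.6. WT mouse 8, of batch 2, was above the others for Tfap2b, at 68.8 CPM against 64.2 to 65.0. Without WT mouse 1, the log2 fold change in SCA1 mice was -0.15 for Gad1 and -0.12 for Gad2, and without WT mouse 3 that of Slc6a5 was 0.05.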

How the results depend on the processing

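The count of called genes among the 9 was 0 in all 8 comparisons under each alternative tried (280 counts). Of the 2448 log2 fold changes of single genes under an alternative, 2411 kept their sign and 37 reversed, and none of these genes was called. No paired analysis was possible because the labels number no replicates, and the mouse numbers used here follow sample order and pair nothing. Leaving out WT S776A homozygous mice 3 and 4 was chosen after seeing the data. In WT S776A homozygous mice it reversed Slc32a1 (0.123), Pax2 (0.189), Kit (0.013), Sorcs3 (0.013) and Grm2 (0.191), and it raised the genes with an unadjusted p under 0.05 in SCA1 mice from 3 to 5, the number that the fit of 1 batch also gave.

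Without the batch term, Slc6a5 reversed in SCA1 (0.167), SCA1 S776A (0.004) and the 12 mice with the expanded allele (0.034), Sorcs3 in SCA1 S776A (0.055) and S776A double mice (0.021), and Gad2 in WT S776A homozygous mice (0.051). With Xist as a covariate, Pax2 (0.074) and Grm2 (0.054) reversed in S776A double against SCA1 mice, and Slc32a1 (0.050), Pax2 (0.047) and Grm2 (0.018) in S776A double against SCA1 S776A mice. The cause of these reversals was not tested.

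Leaving out 1 mouse at a time reversed 16 of the 72 values. Against WT, the lowest and highest values were -0.208 and 0.10 for Slc6a5 in SCA1 mice, -0.094 and 0.013 for Sorcs3 and -0.103 and 0.023 for Tfap2b in SCA1 S776A mice, -0.158 and 0.028 for Gad2 in S776A double mice, and -0.069 and 0.003 for Gad2 in WT S776A homozygous animals. Between SCA1 S776A and SCA1 mice they were -0.012 and 0.094 for Gad2, -0.010 and 0.107 for Slc32a1, and -0.018 and 0.091 for Pax2. In S776A double against SCA1 mice they were -0.001 and 0.185 for Gad2, -0.103 and 0.005 for Pax2, and -0.052 and 0.122 for Tfap2b. In S776A double against SCA1 S776A mice they were -0.066 and 0.056 for Gad1, -0.043 and 0.144 for Gad2, -0.070 and 0.047 for Slc32a1, -0.153 and 0.010 for Kit, and -0.093 and 0.023 for Sorcs3. The number of the 9 genes with an unadjusted p under 0.05 in SCA1 mice ranged from 0, without WT mouse 1, to 5, and was 1 without SCA1 mouse 4.

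Over all genes tested, ComBat-seq with DESeq2 called 117 genes in SCA1, 32 in SCA1 S776A, 50 in S776A double and 99 in WT S776A homozygous mice, against 39, 3, 6 and 0 in the edgeR fit, and the fit of 1 batch called 65, 0, 11 and 0. Each of the 9 genes had at least 289 counts in every library, and the SEs of their differences from WT were 0.08 to 0.23 on the log2 scale with 4 mice a group.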
